A study of Mus musculus with 6 samples.

Results

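The genes described here are 10 genes of mitophagy and mitochondrial dynamics, picked by symbol from the 45777 genes of the count table and joined by gene identifier to the TPM tables, in which all 10 were found. They were measured by RNA-Seq in the tibialis anterior (TA) muscle, a fast-twitch muscle of the lower hind limb. Total RNA came from 6 male C57BL/6J mice labelled 24 months old, and the study's text gives other ages in other places. The vehicle group (n = 3) received the solvent alone by intraperitoneal injection. The BML-260 group (n = 3) received 5 mg/kg of BML-260, a small molecule that the study uses to target the phosphatase DUSP22, over 1 month. The labels name no transgene or deletion, although the study's reagents list prints an identifier containing Gpr37tm1Dgen beside the strain. There was no young group, so the values compare treated with untreated old muscle and say nothing of ageing itself. The libraries held between 39522890 and 56998875 counts.

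Mitophagy is the removal of damaged or surplus mitochondria by autophagy. It can start from receptors that sit in the outer mitochondrial membrane and bind the autophagosome (BNIP3, BNIP3L, also called NIX, and FUNDC1), or from the kinase PINK1, which accumulates on depolarised mitochondria and marks them for removal. Mitochondria also fuse, through the mitofusins MFN1 and MFN2 of the outer membrane and OPA1 of the inner membrane, and divide, through the GTPase DRP1 (encoded by Dnm1l), which the outer membrane proteins MFF and FIS1 are known to bring to mitochondria. In muscle, BNIP3 is known as a target of FOXO3a and of the hypoxia-inducible factors, and the study lists it among its FOXO3a-linked genes.

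None of the 10 genes passed edgeR's quasi-likelihood test between the groups, and none had an adjusted p under 0.05 with DESeq2's Wald test. Before adjustment DESeq2 called Bnip3 (lower) and Pink1 (higher) at 1.3-fold and p under 0.05, beside 6.31% of all tested genes. Pink1 was the only one of the 10 genes whose groups did not overlap, a property shared by 12.1% of all tested genes. The lower mean of Bnip3 with BML-260 rested largely on 1 vehicle library: its log2 fold change was -0.89 with that library and -0.16 without it. Vehicle replicate 3 stood apart from the other 5 libraries for Bnip3. Its normalized count was over 2-fold above the highest of the other libraries for 591 of the 16188 tested genes (3.65%). This share was not computed for the other libraries. Fold changes of the genes named are therefore given with and without vehicle replicate 3. To compare a gene between libraries, each count was divided by the DESeq2 size factor of its library, which gives the normalized count. Levels of different genes are compared only in TPM, which is scaled for gene length.

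The promoters of Bnip3 and Pink1 are shown because the results turn on this pair of genes and because Bnip3 is a known hypoxia target. Each runs from 250 bases before to 50 bases after the start that RefSeq gives on GRCm38.p6, and capitals mark the core letters of the hypoxia response element, ACGTG or GCGTG, on either strand (CACGT or CACGC when read from the other strand).
Bnip3, chr7:138909457-138909756, minus strand: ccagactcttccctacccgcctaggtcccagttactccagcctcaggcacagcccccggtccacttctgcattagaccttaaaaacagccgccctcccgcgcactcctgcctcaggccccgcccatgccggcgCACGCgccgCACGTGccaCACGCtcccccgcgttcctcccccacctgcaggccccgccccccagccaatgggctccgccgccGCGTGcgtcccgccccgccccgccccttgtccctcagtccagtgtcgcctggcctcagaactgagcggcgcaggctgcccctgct
Pink1, chr4:138326247-138326546, minus strand: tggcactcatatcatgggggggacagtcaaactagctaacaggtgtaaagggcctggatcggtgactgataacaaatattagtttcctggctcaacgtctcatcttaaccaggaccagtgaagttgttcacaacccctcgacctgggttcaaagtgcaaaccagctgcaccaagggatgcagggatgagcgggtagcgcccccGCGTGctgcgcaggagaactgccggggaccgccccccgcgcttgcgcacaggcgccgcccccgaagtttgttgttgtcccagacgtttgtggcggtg
The Bnip3 window held 5 matches, among them ACGTG at -107 and CACGT at -108, which overlap in the palindrome in the middle of the cluster (positions are of the first base, with the start base as 0). At least 5 matches were found in 1.66% of the 32851 mouse promoter windows of this length, and at least 1 match in 43.8% of them. The Pink1 window held 1 match, GCGTG at -47. The FOXO letters GTAAACA, searched on both strands, were found in 3.65% of all windows and in none of the windows of the genes described. A match of letters is a description of the window, and these RNA data do not show which factor bound there. Promoter windows were found for 9 of the 10 genes, all but Bnip3l.

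Levels in TPM spanned from Fundc1, the lowest, to Pink1, the highest. Over the 6 libraries, Pink1 had a mean of 485 TPM ± 56.3 (SD, n = 6) and Fundc1 a mean of 13.0 TPM ± 1.56 (SD, n = 6). Bnip3 came second with a mean of 279 TPM, and of 176 TPM ± 19.2 (SD, n = 5) with vehicle replicate 3 left out, when it still came second. Fis1 followed with 147 TPM ± 15.8, Mfn2 with 124 TPM ± 7.21, Mff with 93.6 TPM ± 7.34 and Mfn1 with 72.8 TPM ± 8.40 (SD, n = 6 each). Dnm1l, Opa1 and Bnip3l were close together, with means of 39.7, 39.7 and 38.7 TPM, and the ranges of neighbours in this trio overlapped. Among the other neighbours, the ranges of Pink1 and Bnip3, of Bnip3 and Fis1, and of Fis1 and Mfn2 overlapped, whereas those of Mfn2 and Mff, of Mff and Mfn1, of Mfn1 and Dnm1l, and of Bnip3l and Fundc1 did not. Within a library the order of Fis1 over Mfn2 held in 6 of 6 libraries, and Pink1 was above Bnip3 in 5 of 6, the exception being vehicle replicate 3.

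**Figure D1:**
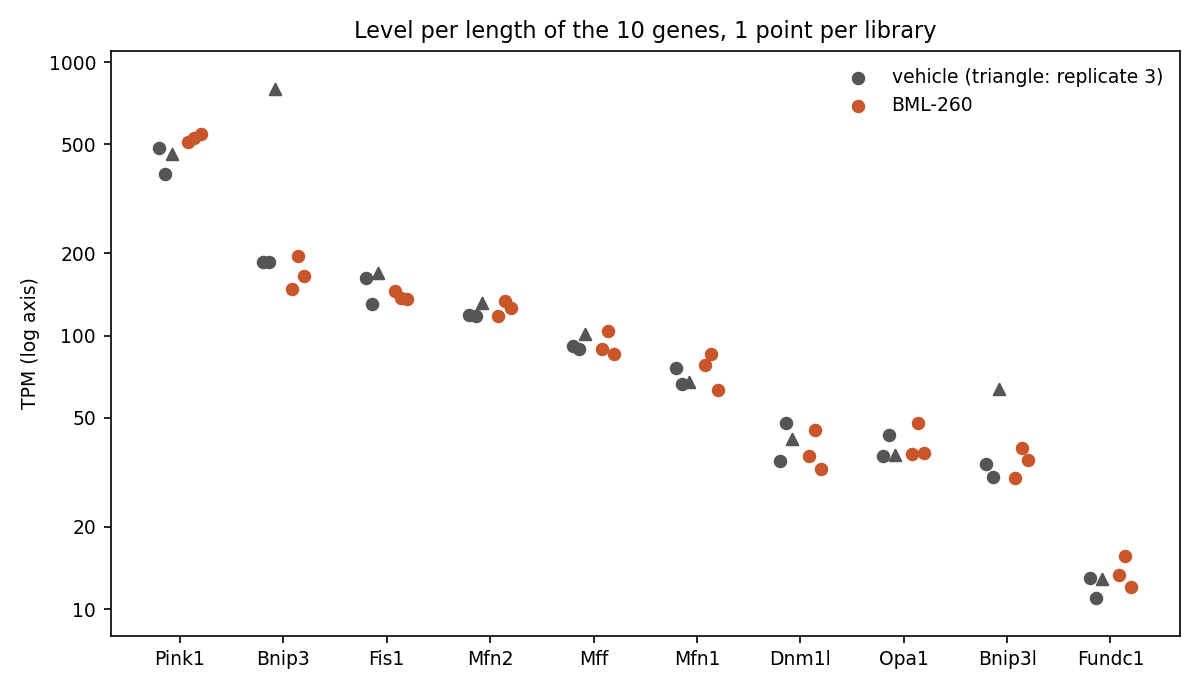
TPM of the 10 genes on a log axis, with 1 point per library (grey for vehicle with a triangle for replicate 3, orange for BML-260), in the order of the mean over 6 libraries. The triangle of Bnip3 lies at 794 TPM while the other 5 libraries lie between 148 and 195 TPM.

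Bnip3, the receptor that is also a BH3-only protein of the outer mitochondrial membrane, had normalized counts of 9210, 9712 and 28491 in vehicle replicates 1, 2 and 3. The BML-260 libraries had 8082, 9451 and 8000. Vehicle replicate 3 was thus 3.09 times the median of the other 5 libraries, and the remaining vehicle libraries and the BML-260 libraries overlapped. The coefficient of variation over the libraries was 66.1%, and 8.96% over the 5 that exclude vehicle replicate 3. The log2 fold change of BML-260 over vehicle was -0.89 (SE 0.41, 95% interval -1.83 to 0.04), which corresponds to 0.539 of the vehicle level. It did not pass edgeR's quasi-likelihood test (unadjusted p = 0.0590, Benjamini-Hochberg adjusted p = 0.788). With that library left out, it was -0.16 (SE 0.14, edgeR unadjusted p = 0.278).

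The difference in Bnip3 depended on the test as well as on that library. DESeq2's Wald test, the tool that the study names, gave an unadjusted p of 0.0186 and an adjusted p of 0.543 for Bnip3. limma voom with sample quality weights, which gives a deviating library less weight, put the log2 fold change of Bnip3 at -0.31 (unadjusted p = 0.171). In TPM, Bnip3 was at 185, 186 and 794 in the vehicle libraries and at 148, 195 and 165 with BML-260. On this scale too, only vehicle replicate 3 lay outside the range of the rest.

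Bnip3l, the paralogue of Bnip3 that is known for clearing mitochondria from maturing red cells, had normalized counts of 3107, 2933 and 4220 with vehicle and 3030, 3451 and 3136 with BML-260. Vehicle replicate 3 was again the highest, but at 1.36 times the median of the others, and the groups overlapped. For Bnip3l the log2 fold change was -0.10 (SE 0.17, 95% interval -0.48 to 0.29; edgeR adjusted p = 0.886) and turned to 0.08 (SE 0.13) without that library. In TPM, Bnip3 exceeded Bnip3l by 5.47, 6.11 and 12.4 times in the vehicle libraries and by 4.92, 5.05 and 4.71 times in the BML-260 libraries.

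Fundc1, the receptor that is known to work in mitophagy under low oxygen, ran the other way in vehicle replicate 3. Its normalized counts were 1082, 950 and 774 with vehicle and 1216, 1256 and 978 with BML-260. A pair of BML-260 libraries lay above all vehicle libraries, while BML-260 replicate 3 lay within the vehicle range. For Fundc1 it was 0.29 (SE 0.17, 95% interval -0.10 to 0.69; edgeR adjusted p = 0.788), and 0.17 (SE 0.15) without vehicle replicate 3.

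Pink1, the kinase that marks damaged mitochondria, had normalized counts of 32377, 27294 and 22257 in the vehicle libraries. In the BML-260 libraries they were 37442, 34294 and 35642, all above the highest vehicle library. Pink1 was the only one of the 10 genes whose groups did not overlap in normalized counts, against 12.1% of all tested genes without overlap and 5.43% without overlap and higher with BML-260. A count of 1 in 10 was close to this background. The groups of Pink1 did not overlap in TPM either, with 483, 389 and 460 for vehicle and 509, 526 and 546 for BML-260. The log2 fold change was 0.39 (SE 0.20, 95% interval -0.07 to 0.84), a level 1.31 times that of vehicle (edgeR unadjusted p = 0.0844, adjusted p = 0.788). Without vehicle replicate 3, the lowest library for Pink1 in normalized counts, it was 0.26 (SE 0.15, edgeR unadjusted p = 0.116), and the groups still did not overlap, as was the case for 18.1% of all tested genes in the same 5 libraries.

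The legend of the study's volcano plot prints a threshold that asks for both a 1.3-fold difference and p under 0.05 before adjustment. By edgeR's quasi-likelihood test 0 of the 10 genes met this volcano threshold, against 5.75% of the 16188 tested genes. Of the 10, 0 had an unadjusted edgeR p under 0.05, against 5.97% of all tested genes, and 0 had an adjusted p under 0.05. DESeq2's Wald test called 2 of the 10, Bnip3 (lower) and Pink1 (higher, unadjusted p = 0.0360, adjusted p = 0.699), against 6.31% of all tested genes. Among all tested genes, 0 had an adjusted edgeR p under 0.05, beside 95 (0.587%) with DESeq2, and none of those 95 was among the 10 genes. limma voom called 0 of the 10, against 5.5% of all tested genes, with an unadjusted p of 0.0546 for Pink1.

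**Figure D2:**
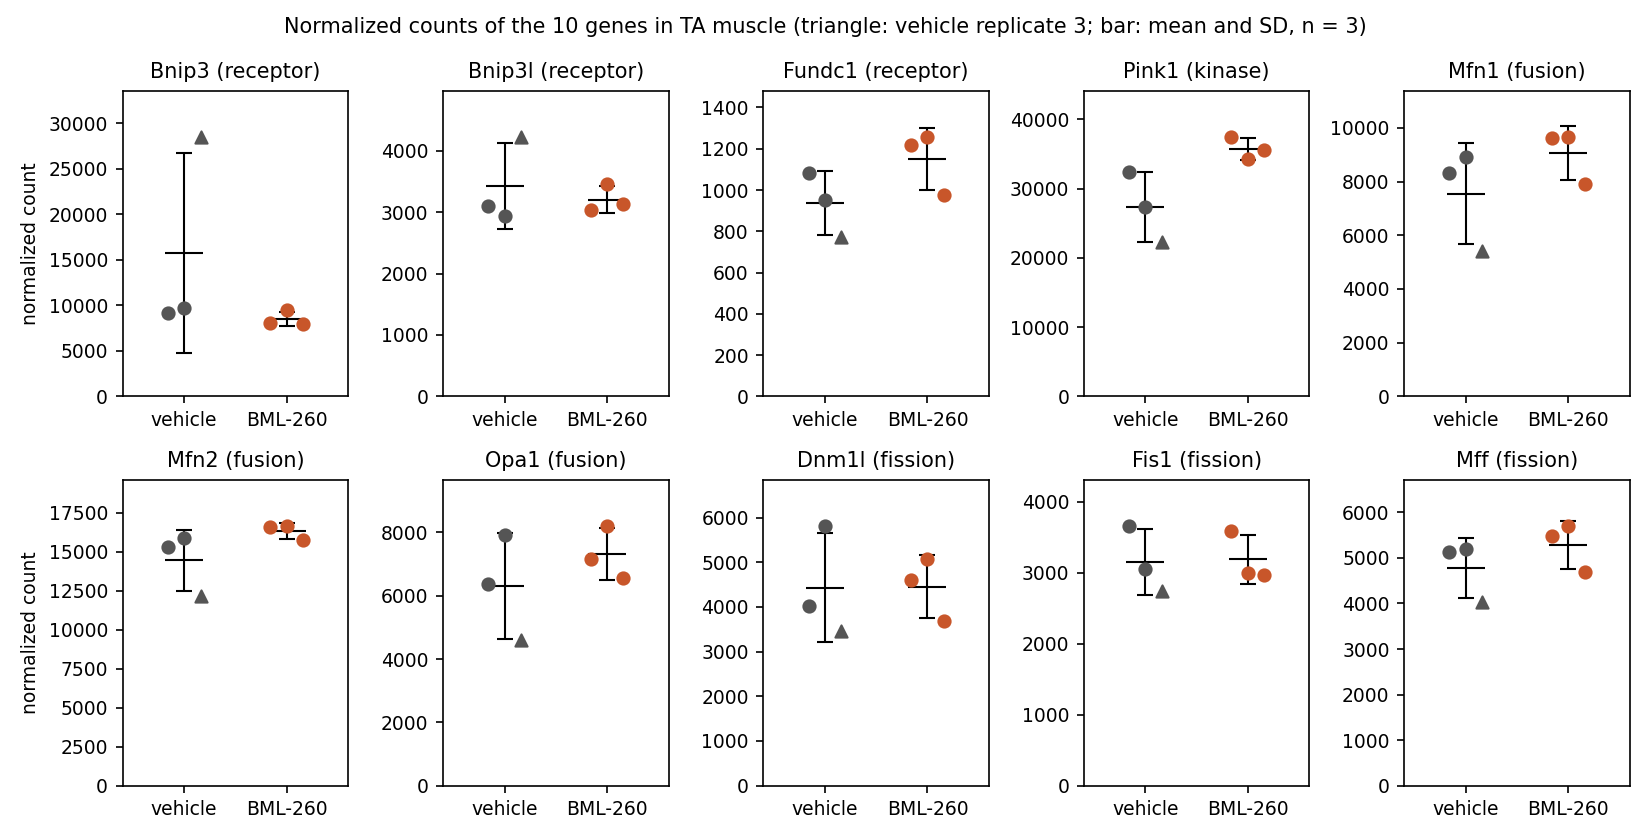
Normalized counts of each of the 10 genes by group, 1 point per library (triangle for vehicle replicate 3), with bars for the mean and SD (n = 3 per group) and vertical axes that start at 0. The groups are apart for Pink1, where the lowest BML-260 library is at 34294 and the highest vehicle library at 32377, and the triangle of Bnip3 is at 28491.

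The fusion genes differed little between the groups. Mfn1, a mitofusin that tethers neighbouring mitochondria, had normalized counts of 8322, 8928 and 5400 with vehicle and 9619, 9653 and 7905 with BML-260. Vehicle replicate 3 was the lowest library, and BML-260 replicate 3 lay below the remaining vehicle libraries. BML-260 over vehicle gave Mfn1 a log2 fold change of 0.26 (SE 0.22, edgeR adjusted p = 0.796) and 0.06 (SE 0.14) without vehicle replicate 3.

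Mfn2, the mitofusin that also links mitochondria to the endoplasmic reticulum, had 15289, 15871 and 12181 with vehicle and 16608, 16631 and 15777 with BML-260. Again vehicle replicate 3 was lowest, and the other 5 libraries lay within a coefficient of variation of 3.60%, the smallest among the 10 genes over those 5 libraries. For Mfn2 the log2 fold change was 0.17 (95% interval -0.21 to 0.56; edgeR adjusted p = 0.809). The interval was -0.23 to 0.36 without vehicle replicate 3.

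Opa1, which fuses the inner membrane and shapes the cristae, had 6383, 7928 and 4593 with vehicle and 7153, 8190 and 6572 with BML-260. The highest and second highest libraries belonged to different groups, and vehicle replicate 3 was the lowest. Opa1 had a log2 fold change of 0.21 (SE 0.22, edgeR adjusted p = 0.820) and 0.02 (SE 0.15) without vehicle replicate 3.

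For the fission genes the estimates were nearer to 0. Dnm1l, the GTPase that constricts mitochondria, had normalized counts of 4020, 5801 and 3471 with vehicle and 4591, 5073 and 3681 with BML-260. The vehicle libraries held both the highest and the lowest value. Dnm1l had a log2 fold change of 0.00067 (SE 0.22, 95% interval -0.51 to 0.51; edgeR adjusted p = 0.999), and -0.15 without vehicle replicate 3. The sign also turned on the TPM scale.

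Fis1, an outer membrane adaptor of fission, had 3653, 3058 and 2746 with vehicle and 3593, 3000 and 2974 with BML-260, so each group had 1 library near the top and the rest close together. Its log2 fold change was 0.01 (95% interval -0.36 to 0.38; edgeR adjusted p = 0.985), and -0.080 (SE 0.15) without vehicle replicate 3. Mff, the main adaptor for DRP1, had 5134, 5201 and 4024 with vehicle and 5492, 5692 and 4696 with BML-260. Here a pair of BML-260 libraries was highest, and BML-260 replicate 3 lay below all vehicle libraries but replicate 3. Mff had a log2 fold change of 0.14 (95% interval -0.23 to 0.51; edgeR adjusted p = 0.832), and 0.028 (SE 0.14) without vehicle replicate 3. The values of 3 mice per group did not exclude differences of any size inside these intervals.

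**Figure D3:**
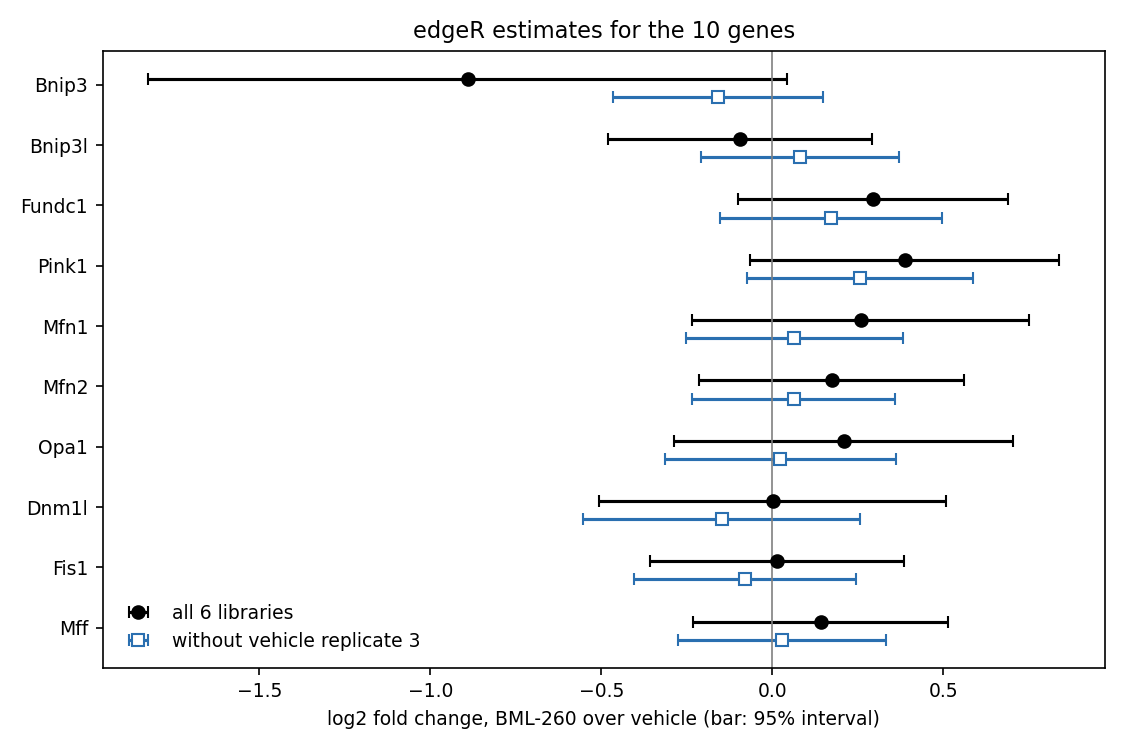
Log2 fold changes of BML-260 over vehicle for the 10 genes with 95% intervals from edgeR, over all 6 libraries (filled circles) and without vehicle replicate 3 (open squares). Every interval spans 0, and the estimate of Bnip3 moves from -0.89 to -0.16.

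Over the 10 genes the median log2 fold change was 0.16, with 8 estimates above 0 and 2 below, beside a median of -0.0039 over all tested genes. Leaving out vehicle replicate 3 made it 0.05, with 7 above and 3 below. In normalized counts vehicle replicate 3 was the highest library for 2 of the 10 genes (Bnip3 and Bnip3l) and the lowest for the other 8, whereas it was the lowest for 31.1% of all tested genes. In TPM it was the lowest for 0 of the 10 genes and the highest for 3, beside 1722 and 9898 (63.3%) of the 15627 tested genes with a TPM value. On either scale this library was the highest for Bnip3 and Bnip3l.

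Vehicle replicate 3 also stood apart for markers of other cell types, which in bulk muscle cannot be told apart from more RNA per cell. All 5 slow fiber markers, all 6 macrophage markers, all 3 listed neutrophil markers that were tested, all 3 tested adipocyte markers, all 5 erythroid markers and all 4 Schwann cell markers were highest in it. In normalized counts this held for 3 of 5 fibroblast, 2 of 4 endothelial and 0 of 9 fast fiber markers. Of all tested genes, 32.3% were highest in it in normalized counts and 63.3% in TPM. The summed TPM of the slow fiber markers was 565 in vehicle replicate 3, 21.2 and 32.5 in the other vehicle libraries and between 30.9 and 75.9 with BML-260. The neutrophil sum ranged from 23.6 to 799 in the vehicle libraries and from 6.67 to 11.9 with BML-260, with Ly6g at 0 counts in at least 1 library. The erythroid sum was 8752 in vehicle replicate 3 and between 1619 and 2162 in the other 5 libraries. Fast fiber markers summed to between 91843 and 130198 TPM in all libraries, as fits the label of the tissue, and the groups overlapped. The macrophage sum ranged from 36.9 to 129 TPM with vehicle and from 27.4 to 32.3 TPM with BML-260, and edgeR called 5 of its 6 markers lower with BML-260 at the volcano threshold, against 4.86% of all tested genes. Of the other lists, edgeR called lower 3 of 3 tested neutrophil, 3 of 5 erythroid, 2 of 5 slow fiber and 1 of 5 fibroblast markers. With vehicle replicate 3 left out, the calls of lower markers were 5 of 6 for macrophages, 3 of 3 for neutrophils, 2 of 5 for erythroid cells, 1 of 5 for slow fibers and 1 of 5 for fibroblasts, against 2.92% of the genes tested. Without that library edgeR also called 3 of 5 slow fiber and 3 of 4 Schwann cell markers higher with BML-260, beside 175 of the 16502 genes tested. The median log2 fold change of the slow fiber list moved from -1.28 to 0.74, and that of the Schwann cell list from -0.51 to 0.58. Neither the macrophage sum nor the neutrophil sum overlapped between the groups. The part of these cell types in the values of the 10 genes was not tested.

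The profile of Bnip3 over the 6 libraries was compared with that of every tested gene, by the root mean square difference of log2 normalized counts centred on their mean. Among genes with a curated name, the nearest were Glul, which encodes glutamine synthetase, with a difference of 0.0715, and Map3k8, a kinase, with 0.103. Then came the noncoding RNA Snhg1 with 0.105, Gna15, a G protein subunit, with 0.113, and Atp2a2, the calcium pump of slow muscle, with 0.137. The median difference over all tested genes was 0.688. In Glul, vehicle replicate 3 had a normalized count of 53736 and the other 5 libraries had between 15577 and 20878. Bnip3l lay at 0.482 and Pink1 at 0.876 from Bnip3. These likenesses rest on 6 libraries, of which vehicle replicate 3 lay farthest from the mean for Bnip3 and for each of the 5 genes, and Gna15 had between 9 and 55 raw counts per library.

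**Figure D4:**
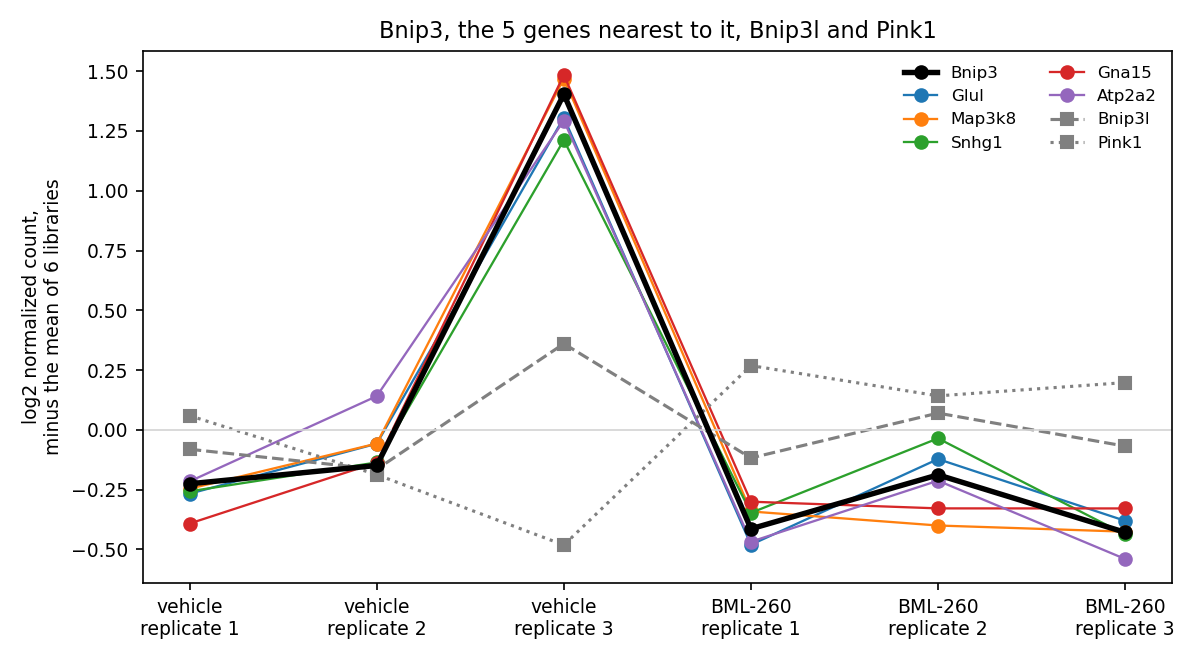
Log2 normalized counts minus their mean over 6 libraries (vertical axis) in each library (horizontal axis). The lines are Bnip3 (thick black), the 5 genes with a curated name nearest to it, and Bnip3l and Pink1 in grey. Bnip3 is 1.40 above its mean in vehicle replicate 3 and between 0.43 and 0.15 below it in the other libraries.

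Because Bnip3 is a known target of the hypoxia-inducible factors, a list of 15 other hypoxia response genes was set beside it. All 15 were tested, 8 had an estimate above 0 and 7 below, with a median log2 fold change of 0.03. At the volcano threshold 2 were lower with BML-260 and 0 higher, against 4.86% and 0.896% of all tested genes. These were Slc2a1, the basal glucose transporter (log2 fold change -0.86, SE 0.30, edgeR unadjusted p = 0.0193, adjusted p = 0.780), and Egln3, a prolyl hydroxylase that is itself induced by hypoxia (-1.88, SE 0.70, edgeR unadjusted p = 0.0263, adjusted p = 0.788).

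Egln3 resembled Bnip3 in that vehicle replicate 3, at 8345 normalized counts, lay above the other 5 libraries, which had between 944 and 1474. Without that library its log2 fold change was -0.34 (edgeR unadjusted p = 0.0636). Slc2a1 had 341, 296 and 634 with vehicle and 247, 189 and 266 with BML-260, and its groups did not overlap. Its log2 fold change was -0.45 without vehicle replicate 3 (edgeR unadjusted p = 0.0463). Of the 15 hypoxia response genes, 2 were without overlap and lower with BML-260 over the 6 libraries, and 0 were without overlap and higher. Among the 16188 tested genes these numbers were 1085 and 879. The highest estimate of the list was that of Egln1, the main prolyl hydroxylase of the family, at 0.40 (SE 0.23, edgeR adjusted p = 0.788), and at 0.18 (SE 0.14) without vehicle replicate 3.

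Another 54 genes of the same pathways were examined: 26 of mitophagy, 23 of fusion and fission and 5 of mitochondrial transport. Of these, 53 passed the filter on low counts, and the exception was Pld6, with at most 5.08 normalized counts. By edgeR's quasi-likelihood test 0 of the 53 met the volcano threshold in either direction, 0 had an unadjusted p under 0.05 and 0 an adjusted p under 0.05, while DESeq2 and limma voom each called 1, Gdap1. The median log2 fold change was 0.14, with 40 estimates above 0 and 13 below. In the other 5 libraries it was 0.03, with 34 above and 19 below. The groups did not overlap in 7 of the 53, all higher with BML-260. Of all tested genes 12.1% were without overlap, and 5.43% were without overlap and higher. Without vehicle replicate 3 it was 9 of the 53, all higher. In the same 5 libraries 18.1% of all tested genes were without overlap, with 1421 of the 16188 higher.

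Gdap1, an outer membrane protein that promotes fission, had the highest estimate. Its normalized counts were 500, 621 and 101 with vehicle and 740, 900 and 800 with BML-260, without overlap and with vehicle replicate 3 far below the rest. The log2 fold change was 1.00 (SE 0.52, 95% interval -0.20 to 2.20; edgeR unadjusted p = 0.0924, adjusted p = 0.788). Without vehicle replicate 3 it was 0.53 (SE 0.16, edgeR unadjusted p = 0.0058, adjusted p = 0.514), so that Gdap1 then passed the volcano threshold, as did 3.98% of the genes tested in these 5 libraries.

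The next highest estimates were those of Mtfp1, an inner membrane protein of fission (0.44, SE 0.43), and Ulk2, a kinase that starts autophagy (0.38, SE 0.20). The lowest were those of Tbc1d15, a Rab7 regulator that binds FIS1 (-0.51, SE 0.26), Tax1bp1, an autophagy adaptor (-0.32, SE 0.20), and Kif5b, a kinesin that carries mitochondria (-0.28, SE 0.17), and the edgeR adjusted p was between 0.788 and 0.811 for these 5. With vehicle replicate 3 left out the estimates were 0.024 for Mtfp1, 0.21 for Ulk2, -0.12 for Tbc1d15, -0.11 for Tax1bp1 and -0.18 for Kif5b. In vehicle replicate 3, Mtfp1 had 310 normalized counts against 1132 to 1331 in the other libraries, and Tbc1d15 had 3647 against 1605 to 1956.

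**Figure D5:**
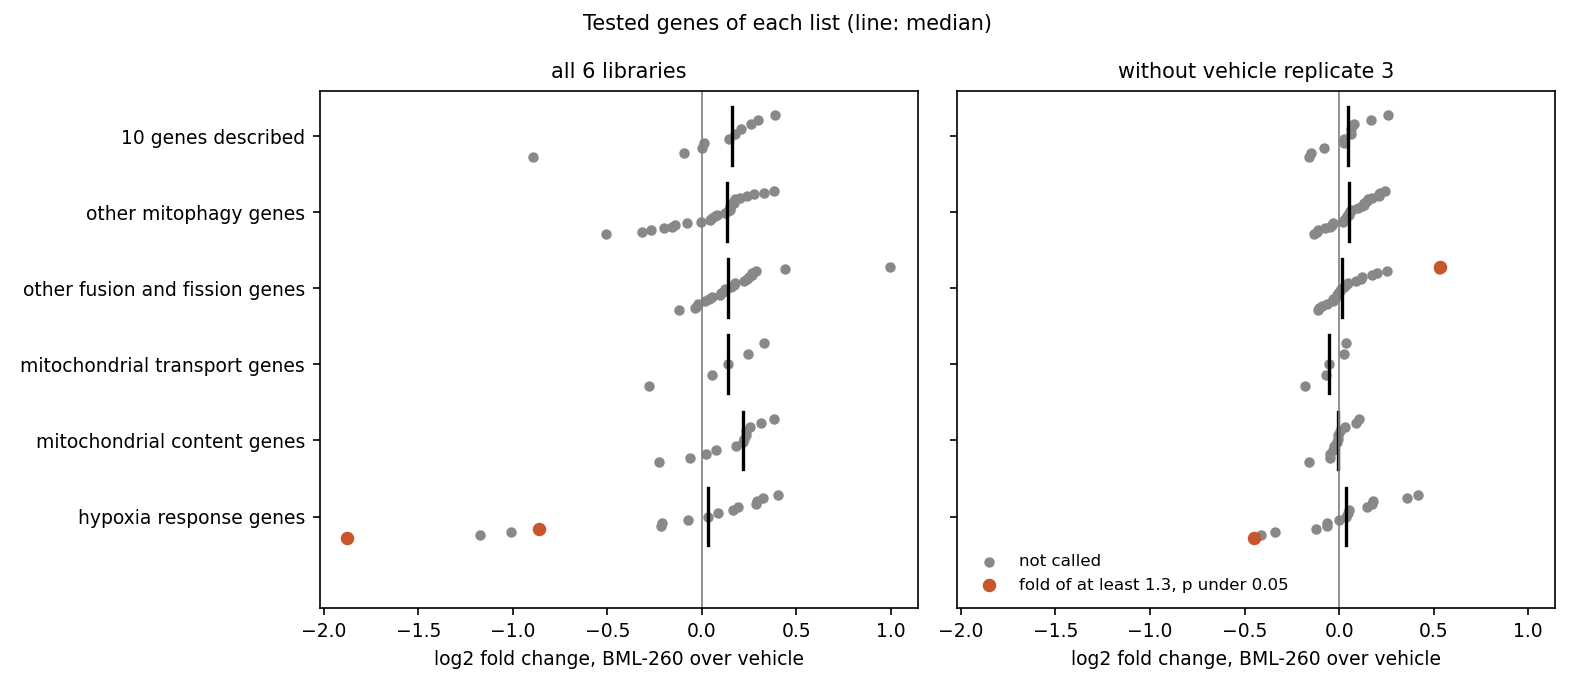
Log2 fold changes of BML-260 over vehicle (horizontal axis) for each tested gene of 6 lists, with a line at the median, over all 6 libraries (left) and without vehicle replicate 3 (right); larger orange points pass the volcano threshold in edgeR. On the right the medians of the lists lie between -0.05 and 0.05, and Gdap1 at 0.53 and Slc2a1 at -0.45 are the points that pass.

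Reads were counted per gene, and whether strand was used in counting is not given in the sources used here. On GRCm38.p6, Mfn1 shares 639 bases with Gnb4, which had between 426 and 645 counts, and Mff shares 2806 bases with the noncoding Gm39668, which had between 155 and 230 counts. Bnip3, at chr7:138890836-138909506, holds 988 bases of the pseudogene Gm18258, which is not listed in the count table, so its counts cannot be separated from any reads of that copy. Pink1, at chr4:138313409-138326296, overlaps only the microRNA gene Mir7019 among the genes of RefSeq, which had between 3 and 6 counts.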

How the data were processed

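RNA-Seq libraries were made from total RNA of the TA muscle with a stranded kit, 1 per mouse. Per the labels and the study's methods, the authors trimmed reads with Trimmomatic 0.38, mapped them to mm10 with HISAT2 2.1.0 and Bowtie2 2.3.4.1, and assembled transcripts with StringTie 2.1.3b. The authors deposited raw counts per gene for 6 libraries (45777 genes, 39522890 to 56998875 counts per library) and TPM values for 16800 genes. The program that counted reads is not given in the sources used here.

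Samples were grouped by the treatment in their labels. Counts were tested in R 4.3.3 with edgeR 4.0.16 (filterByExpr, TMM, quasi-likelihood F-test, Benjamini-Hochberg adjustment over 16188 tested genes), over all 6 libraries without covariates. The SE was the log2 fold change over the square root of F. Normalized counts used DESeq2 1.42.0 size factors. The p-values measure the spread between 3 mice per group. As alternatives, normalization was by RLE or upper quartile, the filter was dropped or set to 10 counts in each library, the replicate number was added as a block, single libraries were left out, and other tests were run: DESeq2, apeglm 1.24.0 shrinkage, limma 3.58.1 voom with quality weights, and limma trend on log2(TPM + 1) and log2(TPM + 0.1). Likeness to Bnip3 used log2(normalized count + 1), and genes with only a provisional name (such as Gm, LOC or Rik) were left out of the nearest genes. Positions, overlaps and promoters are from RefSeq on GRCm38.p6, matched by gene identifier. Fits were tested on simulated data with the same spread setting for all genes and no deviating library. That test does not bear on vehicle replicate 3.

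The 10 genes, the other lists and the tests were chosen with earlier results of these data known. Named genes are the 10 and the 3 highest and 3 lowest of the other pathway genes. The called, highest and lowest of the hypoxia and mitochondrial content lists are also named. So are the 5 genes with a curated name most like Bnip3.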

Additional observations from a re-analysis of the deposited data

How the results depend on the processing

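For the 10 genes, 160 values were recomputed under 16 alternative settings: 134 kept direction and side of the threshold, 6 passed it, and 20 changed sign, the sign changes being in Bnip3l, Dnm1l, Fis1 and Mff. Shrinkage by apeglm, which the study names, kept every sign but moved all 10 log2 fold changes to between -0.0018 for Bnip3 and 0.0041 for Mfn2, with Pink1 at 0.0035. Leaving out single libraries moved the log2 fold change of Bnip3l between -0.19 and 0.079, of Dnm1l between -0.15 and 0.25 and of Fis1 between -0.080 and 0.14. Upper quartile normalization gave Dnm1l -0.018 and Fis1 -0.0029, the filter of 10 counts in every library gave Dnm1l -0.0033, and limma voom gave Bnip3l 0.037, Dnm1l -0.16 and Fis1 -0.015. On log2(TPM + 1) Dnm1l was at -0.13, Fis1 at -0.13 and Mff at -0.019, and on log2(TPM + 0.1) at -0.13, -0.13 and -0.019. TPM also moved the median of all tested genes, to -0.10 and -0.14. The cause of these changes was not tested.

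The number of the 10 genes at the volcano threshold was 1 without a filter (Bnip3), 2 with DESeq2, and between 0 and 2 when single libraries were left out: 2 without vehicle replicate 1 (Bnip3 and Pink1) and 1 without vehicle replicate 2 (Bnip3). Among the other pathway genes it was 2 with the replicate block (Gdap1 and Ulk2), 1 with DESeq2, 1 with voom, 1 on each TPM scale, and between 0 and 5 when single libraries were left out, the 5 being without vehicle replicate 1. The number of the 10 without overlap ranged from 1 to 5, the 5 being without BML-260 replicate 3, where 23.2% of all tested genes did not overlap. That share was between 18.1% and 32.7% when any 1 library was left out. In all tested genes, calls at the threshold numbered 931, beside 2223 without vehicle replicate 1 and 503 without BML-260 replicate 2.

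The groups share replicate numbers, and same-numbered libraries correlated at 0.162, 0.054 and 0.110 (deviations from the group means). Libraries with different numbers correlated at between -0.124 and -0.021, so every library was highest with its own number. The sample titles name no pairing, and the main fit used none. Whether the numbers stand for a shared batch was not tested. With the replicate block 0 of the 10 genes were called, the log2 fold change of Bnip3 was -0.68 and that of Pink1 0.40, and 1057 of all tested genes were called. With 3 mice per group, the 95% intervals of the 10 genes reach from 0.282 to 1.79 times the vehicle level.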

Other observations

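Genes often read as markers of mitochondrial content were examined as a list of 12, all tested. These are transcript levels, and mitochondrial content itself was not measured. Of these, 10 had estimates above 0 and 2 below. The median of the log2 fold changes was 0.22, and edgeR's quasi-likelihood test called 0 at the volcano threshold (0 at an unadjusted p under 0.05). The highest was Vdac1, the main channel of the outer membrane, at 0.38 (SE 0.29), and the lowest was Tomm20, an import receptor, at -0.23 (SE 0.20). Without vehicle replicate 3, Vdac1 was at 0.11 and Tomm20 at -0.0038, the median was -0.0079, with 4 above 0 and 8 below, and the median of the 5 transport genes moved from 0.14 to -0.05. Vdac1 had 46889, 48905 and 22961 normalized counts with vehicle and 51406, 55224 and 48726 with BML-260. Vehicle replicate 3 was the lowest library for 10 of the 12, and for all 3 fusion and all 3 fission genes, in normalized counts.

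The summed TPM of the fusion genes Mfn1, Mfn2 and Opa1 over that of the fission genes Dnm1l, Fis1 and Mff was 0.798, 0.850 and 0.756 with vehicle and 0.859, 0.930 and 0.890 with BML-260. The groups did not overlap in this ratio, which was computed after the values of the genes were known and was not tested. Pink1 over Bnip3 in TPM was 2.61, 2.08 and 0.580 with vehicle and 3.44, 2.69 and 3.31 with BML-260. The vehicle libraries stayed below the BML-260 libraries also without replicate 3, with 2.61 and 2.69 as the nearest values. These genes had the highest and the lowest estimate of the 10, so a ratio of the pair tends to separate the groups by that choice. It too was computed with the values known, and was not tested. Mfn2 over Mfn1 overlapped between the groups, at 1.56, 1.77 and 1.94 with vehicle and 1.51, 1.57 and 1.99 with BML-260.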
